A study of Mus musculus with 24 samples.

Results

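Type I interferon response genes are the subject here: 40 genes that type I interferon induces, taken by their symbols from a list of members. All 40 had a row in the table of 27179 genes, and all 40 passed the filter on low values (10 or more in 3 or more libraries), as 14517 genes did. Bulk RNA-seq libraries came from PDGFRb+ cells, the receptor-positive stromal cells that include adipocyte progenitors, sorted by flow cytometry from white fat of C57BL/6 mice. There were 24 libraries, 3 in each of 8 groups. Gonadal fat gave FIP and APC cells of males (M_FIP, M_APC) and of females (F_FIP, F_APC). Inguinal fat gave DPP4_pos and DPP4_neg cells of males (M_DPP4_pos, M_DPP4_neg) and of females (F_DPP4_pos, F_DPP4_neg). All groups share the strain, and the labels name no genotype, treatment or age. The gates that define FIP and APC cells are not given in the sources used here, and the labels do not say whether replicates were separate or pooled animals, so a p-value here reflects library-to-library spread alone, possibly of technical origin. The design compares depots, sexes and subpopulations.

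Type I interferons are secreted when a cell senses viral nucleic acid or damage. They bind the receptor IFNAR, whose kinases JAK1 and TYK2 activate STAT2, which joins IRF9 in a complex that binds the interferon-stimulated response element (ISRE) near the start of target genes. The targets encode sensors, transcription factors, enzymes that attack viral RNA, and restriction factors, and many are also transcribed at a lower tonic level without infection.

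The ISRE was looked for in the promoters. RefSeq promoter windows (GRCm38.p6), each running from 250 bases before to 50 bases after a transcription start, were at hand for 30 of the 40 genes. An ISRE core, GAAA followed after any 2 bases by GAAA, or on the other strand TTTC followed after any 2 bases by TTTC, with overlapping matches counted, occurred in 18 of the 30 (60.0%), against 3.99% of all 27025 genes with a window. At least 2 cores in 1 window occurred in 8 of them. A STAT dimer core, TTCNNNGAA, which reads the same on both strands and can overlap an ISRE core, occurred in 8 of the 30 (26.7%), against 9.55% of all genes. Windows are printed, with ISRE cores in capitals, for 4 genes of different roles whose levels are described below, each read along the gene's own strand. They are the ubiquitin-like modifier Isg15 (chr4:156200769-156201068, minus strand), the RNA-degradation trigger Oas3 (chr5:120777610-120777909, minus strand), the IFIT family gene Ifit3 (chr19:34583279-34583578, plus strand) and the GTPase gene Irgm1 (chr11:48871371-48871670, minus strand).
Isg15: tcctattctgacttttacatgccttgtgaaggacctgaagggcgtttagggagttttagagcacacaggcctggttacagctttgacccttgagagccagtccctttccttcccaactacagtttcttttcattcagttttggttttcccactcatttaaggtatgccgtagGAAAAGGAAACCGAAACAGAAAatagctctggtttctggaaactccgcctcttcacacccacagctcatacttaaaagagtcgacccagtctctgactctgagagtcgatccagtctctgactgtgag
Oas3: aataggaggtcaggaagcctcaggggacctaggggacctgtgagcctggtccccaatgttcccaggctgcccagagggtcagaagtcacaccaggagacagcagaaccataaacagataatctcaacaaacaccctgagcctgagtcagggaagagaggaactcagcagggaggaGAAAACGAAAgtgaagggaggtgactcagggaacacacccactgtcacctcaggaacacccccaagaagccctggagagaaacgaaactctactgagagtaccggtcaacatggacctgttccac
Ifit3: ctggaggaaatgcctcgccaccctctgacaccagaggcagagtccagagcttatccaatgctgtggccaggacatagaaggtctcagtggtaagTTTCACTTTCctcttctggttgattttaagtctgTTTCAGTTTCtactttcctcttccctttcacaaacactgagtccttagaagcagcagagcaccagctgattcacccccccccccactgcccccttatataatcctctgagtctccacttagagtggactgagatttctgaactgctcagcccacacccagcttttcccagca
Irgm1: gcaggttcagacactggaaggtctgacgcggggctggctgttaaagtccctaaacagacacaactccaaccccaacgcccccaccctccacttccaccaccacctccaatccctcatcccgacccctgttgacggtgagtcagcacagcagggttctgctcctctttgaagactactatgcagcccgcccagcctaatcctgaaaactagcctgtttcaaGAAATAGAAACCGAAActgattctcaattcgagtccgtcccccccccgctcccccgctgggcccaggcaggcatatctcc
In Isg15, 3 cores overlap in 1 run, and in Irgm1 2 cores overlap close to the start. The Ifit3 window holds 2 separate cores and the Oas3 window 1. The windows of Irf7, Trim25, Oasl1 and 9 other members held no match, which says only that these letters are not in these windows. Of the 12 pairs of groups compared here, M_APC against M_DPP4_neg had the largest median member difference. There the median log2 difference was -1.80 over the 18 members with a core and -1.45 over the 12 matched members without one.

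Values are the authors' normalised read counts, and the libraries held 9152470 to 18221692 recovered reads. The progenitor markers were detected in every library: Pdgfra lay between 6232 and 19533 normalised counts and Pdgfrb between 1729.7 and 6277. One library stands apart in the interferon genes. F_DPP4_pos replicate 3 was the highest of its group for 39 of the 40 members, all but Ifi27, whereas it was the highest for 31.1% of all tested genes. Its median member lay 0.73 (log2) above the mean of the other F_DPP4_pos libraries, and its median gene over all tested genes -0.00. Counts of members that rest on this group are given with and without it. The 13 macrophage markers summed to 330.7, 333.8 and 404.1 in F_DPP4_pos, with replicate 3 between the others. Replicate 3 was the highest of its group for the summed 3 plasmacytoid dendritic cell markers, at 4.96, and 7 lymphocyte markers, at 32.2 against 23.4 in the next library, and their part in the results was not tested. F_DPP4_neg held the most transcripts of epithelial and mesothelial markers (sums of 7829.6 to 18751 over 9 epithelial genes and 7258 to 17627 over 10 mesothelial genes), against at most 624.3 and 1253 in any library of the other groups. Krt8 and Krt18 are in both lists, so the epithelial and mesothelial sums are not independent and do not separate these cell types. In bulk RNA, fewer cells of a type and less RNA per cell cannot be told apart.

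As a set, the genes were highest in inguinal cells and lowest in male gonadal cells. For each library the log2 value of each gene was expressed as its deviation from that gene's mean over 24 libraries, and the deviations of the 40 genes were averaged. The mean was -1.03 ± 0.05 in M_FIP, -0.40 ± 0.09 in F_FIP, -0.86 ± 0.10 in M_APC and -0.11 ± 0.11 in F_APC (SD, n = 3 libraries each). It was 0.70 ± 0.07 in M_DPP4_pos, 0.60 ± 0.44 in F_DPP4_pos (0.34 without replicate 3), 0.86 ± 0.04 in M_DPP4_neg and 0.25 ± 0.17 in F_DPP4_neg. The male gonadal libraries all lay at -0.77 or lower and the female gonadal libraries between -0.45 and 0.02, so the sexes did not overlap there. In inguinal cells the order was the other way in DPP4_neg cells, where the male libraries (0.82 to 0.91) all lay above the female ones (0.08 to 0.42). The F_DPP4_pos libraries, at 0.26, 0.42 and 1.10, straddled the M_DPP4_pos range of 0.62 to 0.75. M_DPP4_neg held the highest group mean of 17 members, F_DPP4_pos of 10, M_DPP4_pos of 9 and F_APC of 4. With F_DPP4_pos replicate 3 left out, F_DPP4_pos was highest for 1 member, Eif2ak2, and M_DPP4_neg, M_DPP4_pos and F_APC for 21, 14 and 4. M_FIP and M_APC held the lowest mean of 17 members each.

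**Figure D1:**
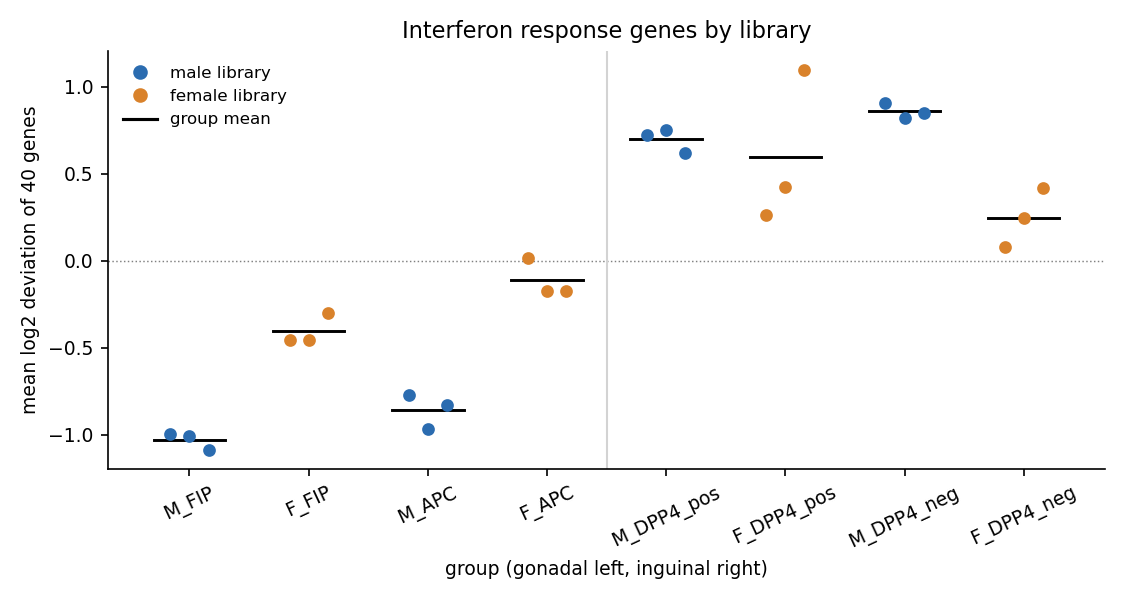
Mean log2 deviation of the 40 genes (y axis; each gene centred on its mean over 24 libraries) for each library of the 8 groups (x axis), males in blue, females in orange, with the group mean as a bar. Male gonadal libraries lie at -0.77 or lower, and F_DPP4_pos replicate 3, at 1.10, is the highest of all libraries.

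Most members varied together over the libraries. Over the 780 pairs of members the median Pearson r across the 24 libraries, which fall into 8 groups, was 0.73, and 708 pairs had r above 0. For the median member 93.9% of the variance lay between groups. Taken as deviations from group means, the members had a median pairwise r of 0.63, and of 0.32 without the F_DPP4_pos libraries. The members least like the mean of the other 39 were Mx2 (r = -0.20), Irf9 (0.13), Irgm1 (0.14), Ifit2 (0.19), Ifi27 (0.25) and Gbp7 (0.30). All 40 differed among the 8 groups in an overall limma test, as did 95.1% of all tested genes. Per kilobase of exon, averaged over the groups, Ifitm3 stood highest at 12800.1 normalised counts per kb, followed by Gbp2 at 2774 and Bst2 at 1684. Mx1 at 16.4, Ifi44 at 16.2 and Oas3 at 28.3 stood lowest.

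**Figure D2:**
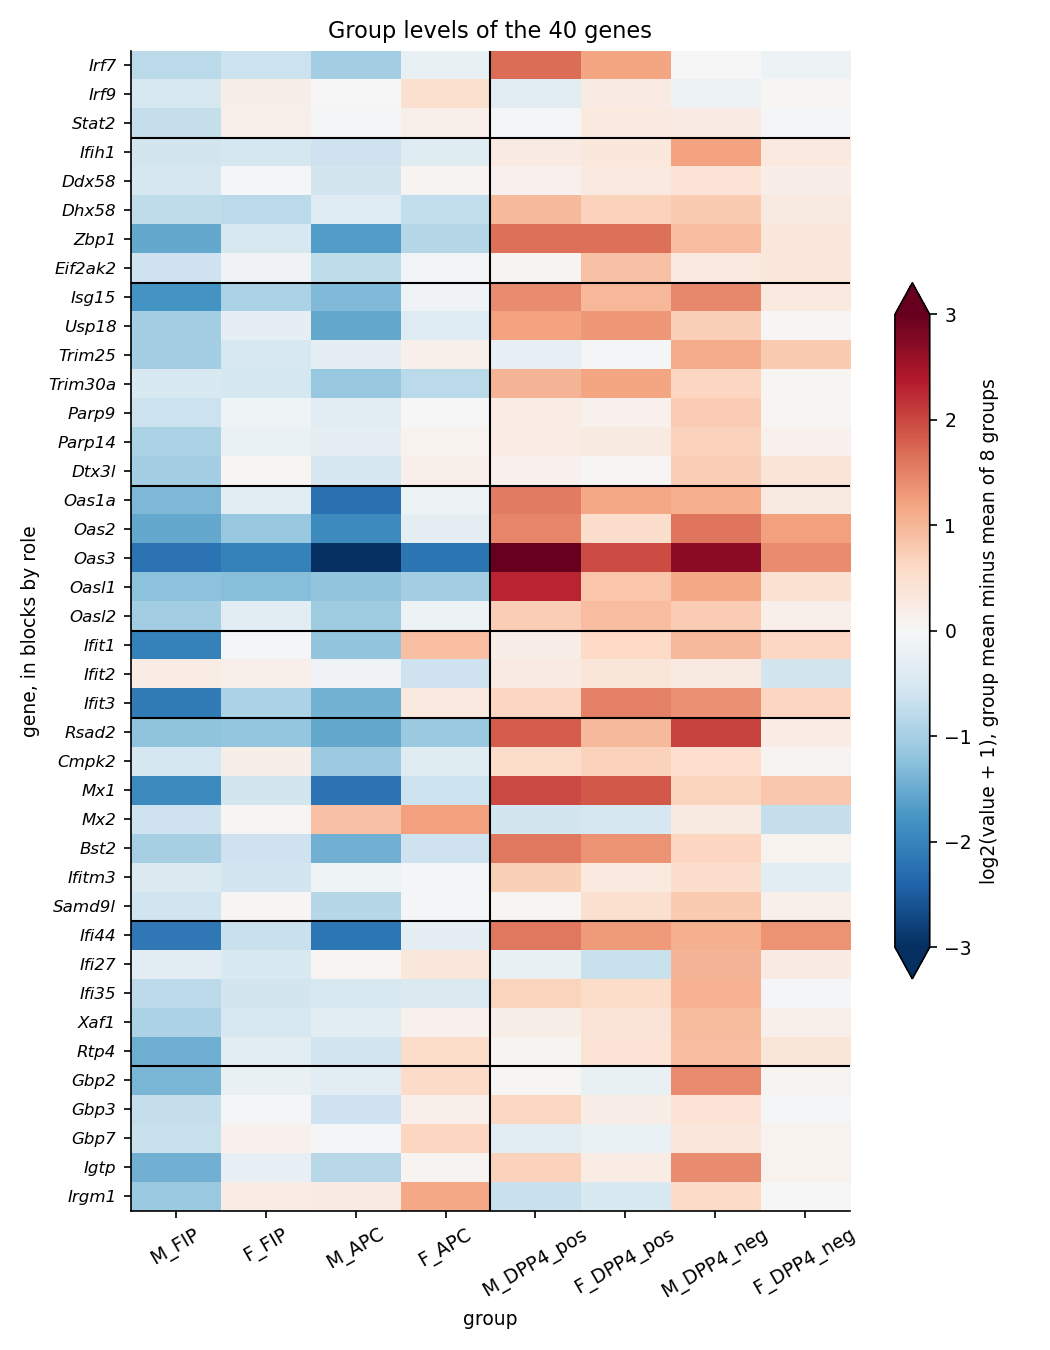
Group mean of log2(value + 1) minus the mean of the 8 group means (colour) for the 40 genes (rows, in blocks by role) and 8 groups (columns, gonadal left of the line). Most rows are blue on the left and red on the right, while Mx2, Irgm1 and Gbp7 are reddest in F_APC.

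Among the transcription factors, Irf7, which drives later waves of interferon-alpha genes, marked DPP4_pos cells. It had 808, 796 and 791 in M_FIP, 866, 810.2 and 998 in F_FIP, 715, 658 and 669.7 in M_APC, and 1196, 1190.3 and 1160.0 in F_APC. In inguinal cells it had 4514, 4659 and 4247 in M_DPP4_pos, 2259.7, 3105 and 4468 in F_DPP4_pos, 1524, 1326 and 1307 in M_DPP4_neg, and 1227, 1215 and 1316 in F_DPP4_neg. All 6 DPP4_pos libraries stood above all 18 others, and the gonadal groups lay between 658 and 1196. Irf9, the DNA-binding subunit of the ISRE complex, had 650.0, 629 and 619 in M_FIP, 967, 956 and 1041 in F_FIP, 909, 803 and 917 in M_APC, and 1284, 1236 and 1145 in F_APC. The inguinal values of Irf9 were 695, 691 and 724 in M_DPP4_pos, 953, 1006 and 1144 in F_DPP4_pos, 776, 805 and 790.4 in M_DPP4_neg, and 835, 1015 and 880.2 in F_DPP4_neg. Its female libraries stood above its male libraries in all 4 subpopulations without overlap, and F_APC was highest. Stat2, the partner that lends the complex its activation domain, had 994, 908 and 1093 in M_FIP, 1775, 1793 and 1918 in F_FIP, 1556, 1502 and 1779.5 in M_APC, and 1906, 1721 and 1909 in F_APC, and among the inguinal groups 1621, 1529.6 and 1611 in M_DPP4_pos, 1839.6, 1925 and 2303 in F_DPP4_pos, 1756, 2167 and 1994 in M_DPP4_neg, and 1413, 1713 and 1684 in F_DPP4_neg. M_FIP was the lowest group for Stat2, with all 3 libraries under every other.

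Of the nucleic acid sensors, Zbp1, a sensor of left-handed double-stranded nucleic acid, spanned the widest range. It had 169, 163 and 158 in M_FIP, 356, 328 and 339 in F_FIP, 142, 147 and 156 in M_APC, and 281, 281 and 225 in F_APC. Inguinal cells had 1483, 1584 and 1382 in M_DPP4_pos, 1155, 1304 and 2155 in F_DPP4_pos, 945, 831 and 927 in M_DPP4_neg, and 656, 536 and 601 in F_DPP4_neg. Every inguinal library of Zbp1 exceeded every gonadal library, and the DPP4_pos libraries exceeded the DPP4_neg ones of both sexes. The RNA helicase sensor Ifih1 (MDA5) had 1255, 1336 and 1182 in M_DPP4_pos, 1031, 1115 and 1926 in F_DPP4_pos, 2317, 2519 and 2523 in M_DPP4_neg, and 1093, 1323 and 1466 in F_DPP4_neg, with gonadal libraries between 596 and 860.3. M_DPP4_neg alone lay above 2000 for Ifih1 in all 3 libraries. Eif2ak2 (PKR), the kinase that halts translation on double-stranded RNA, had 792, 902 and 741 in M_DPP4_pos, 1275, 1215 and 1833 in F_DPP4_pos, 832, 967 and 1028 in M_DPP4_neg, and 930.3, 995 and 992 in F_DPP4_neg, with gonadal libraries between 412 and 775. Its highest group was F_DPP4_pos. The helicases Ddx58 (RIG-I) and Dhx58 (LGP2) ran between 607 and 1534 and between 143 and 729.

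Isg15, a ubiquitin-like protein that is conjugated to host and viral targets, had 178, 164 and 148 in M_FIP, 287, 289 and 298 in F_FIP, 259, 211 and 207 in M_APC, and 583, 513 and 487 in F_APC. In inguinal cells it had 1510.2, 1569 and 1469 in M_DPP4_pos, 862, 839 and 1984 in F_DPP4_pos, 2121, 1296 and 1276 in M_DPP4_neg, and 659, 655 and 765 in F_DPP4_neg. All 12 inguinal libraries of Isg15 exceeded all 12 gonadal ones, and 1 library of M_DPP4_neg and 1 of F_DPP4_pos stood well above their groups. Usp18, the protease that removes ISG15 and damps receptor signalling, had 128, 129 and 105 in M_FIP, 186, 187 and 229 in F_FIP, 104, 66.1 and 87.1 in M_APC, and 229, 196 and 149 in F_APC, and among the inguinal groups 541, 577 and 581 in M_DPP4_pos, 498, 528 and 858 in F_DPP4_pos, 548, 318 and 385 in M_DPP4_neg, and 257, 214 and 299 in F_DPP4_neg. It was highest in DPP4_pos cells, with 1 male DPP4_neg library within their range. The ubiquitin ligase Trim25, which acts on RIG-I, had 772, 811 and 791 in M_FIP, 1147, 1079 and 1197 in F_FIP, 1416, 1258 and 1320.2 in M_APC, and 1925, 1733 and 1654 in F_APC. Its inguinal values were 1396, 1441 and 1176 in M_DPP4_pos, 1250.4, 1567 and 1935 in F_DPP4_pos, 3037, 3575 and 3735 in M_DPP4_neg, and 2281, 3147 and 2864 in F_DPP4_neg, with the DPP4_neg libraries of both sexes above all DPP4_pos libraries. The ligase Trim30a went the other way between these cells, with 2025 to 3099 over the DPP4_pos libraries and 960.4 to 1629.8 over the DPP4_neg libraries. The ADP-ribosyltransferase genes Parp14 and Parp9 and the ligase Dtx3l had their highest mean in M_DPP4_neg and their lowest in M_FIP. Parp9 and Dtx3l overlap over 558 bases on opposite strands of chromosome 16, and with the strand setting not given reads from that stretch cannot be told apart. Trim30a, the Ifit and Oas1 genes and the Gbp family have near-identical relatives that share reads, which makes their single values uncertain.

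The OAS family, whose enzymes make the oligoadenylates that switch on RNase L, held the widest depot differences. Oas3 had 7.56, 16.1 and 13.0 in M_FIP, 10.8, 18.8 and 11.9 in F_FIP, 5.37, 2.32 and 9.05 in M_APC, and 7.92, 10.7 and 19.4 in F_APC. Inguinal cells had 839.9, 768 and 641 in M_DPP4_pos, 138, 177 and 478 in F_DPP4_pos, 378, 355 and 406 in M_DPP4_neg, and 133, 122 and 239 in F_DPP4_neg. Its gonadal values rest on 2 to 22 reads a library, and no gonadal library came near the lowest inguinal one; its group means spanned 134.4-fold, with M_DPP4_pos highest and M_APC lowest. Oas1a had 109, 108 and 102 in M_FIP, 208, 224 and 217 in F_FIP, 70.8, 47.5 and 56.6 in M_APC, and 279, 235 and 224 in F_APC, and among the inguinal groups 858, 820.2 and 751 in M_DPP4_pos, 539, 502 and 839 in F_DPP4_pos, 665, 535 and 559 in M_DPP4_neg, and 348, 315 and 333 in F_DPP4_neg. Both male gonadal groups of Oas1a lay under both female ones, and within males M_FIP lay above M_APC. Oas2 had 65.2, 71.4 and 72.3 in M_FIP, 106, 94.7 and 76.6 in F_FIP, 55.8, 42.9 and 62.2 in M_APC, and 182, 127 and 207 in F_APC, and among the inguinal groups 579, 637 and 494 in M_DPP4_pos, 229, 256 and 436 in F_DPP4_pos, 546, 659.7 and 674 in M_DPP4_neg, and 375, 426 and 688 in F_DPP4_neg. Among gonadal groups F_APC was highest for Oas2, and M_DPP4_neg and M_DPP4_pos were the top 2 of the 8 means. Oasl1, a family member that in mouse restrains Irf7 translation, had 501, 565 and 503 in M_DPP4_pos, 154, 150.2 and 299.9 in F_DPP4_pos, 230.4, 268 and 222 in M_DPP4_neg, and 142, 146 and 151 in F_DPP4_neg, with gonadal libraries between 35.1 and 67.3. M_DPP4_pos was highest for Oasl1, with every library above all others. Oasl2 ran between 494 and 3079.

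**Figure D3:**
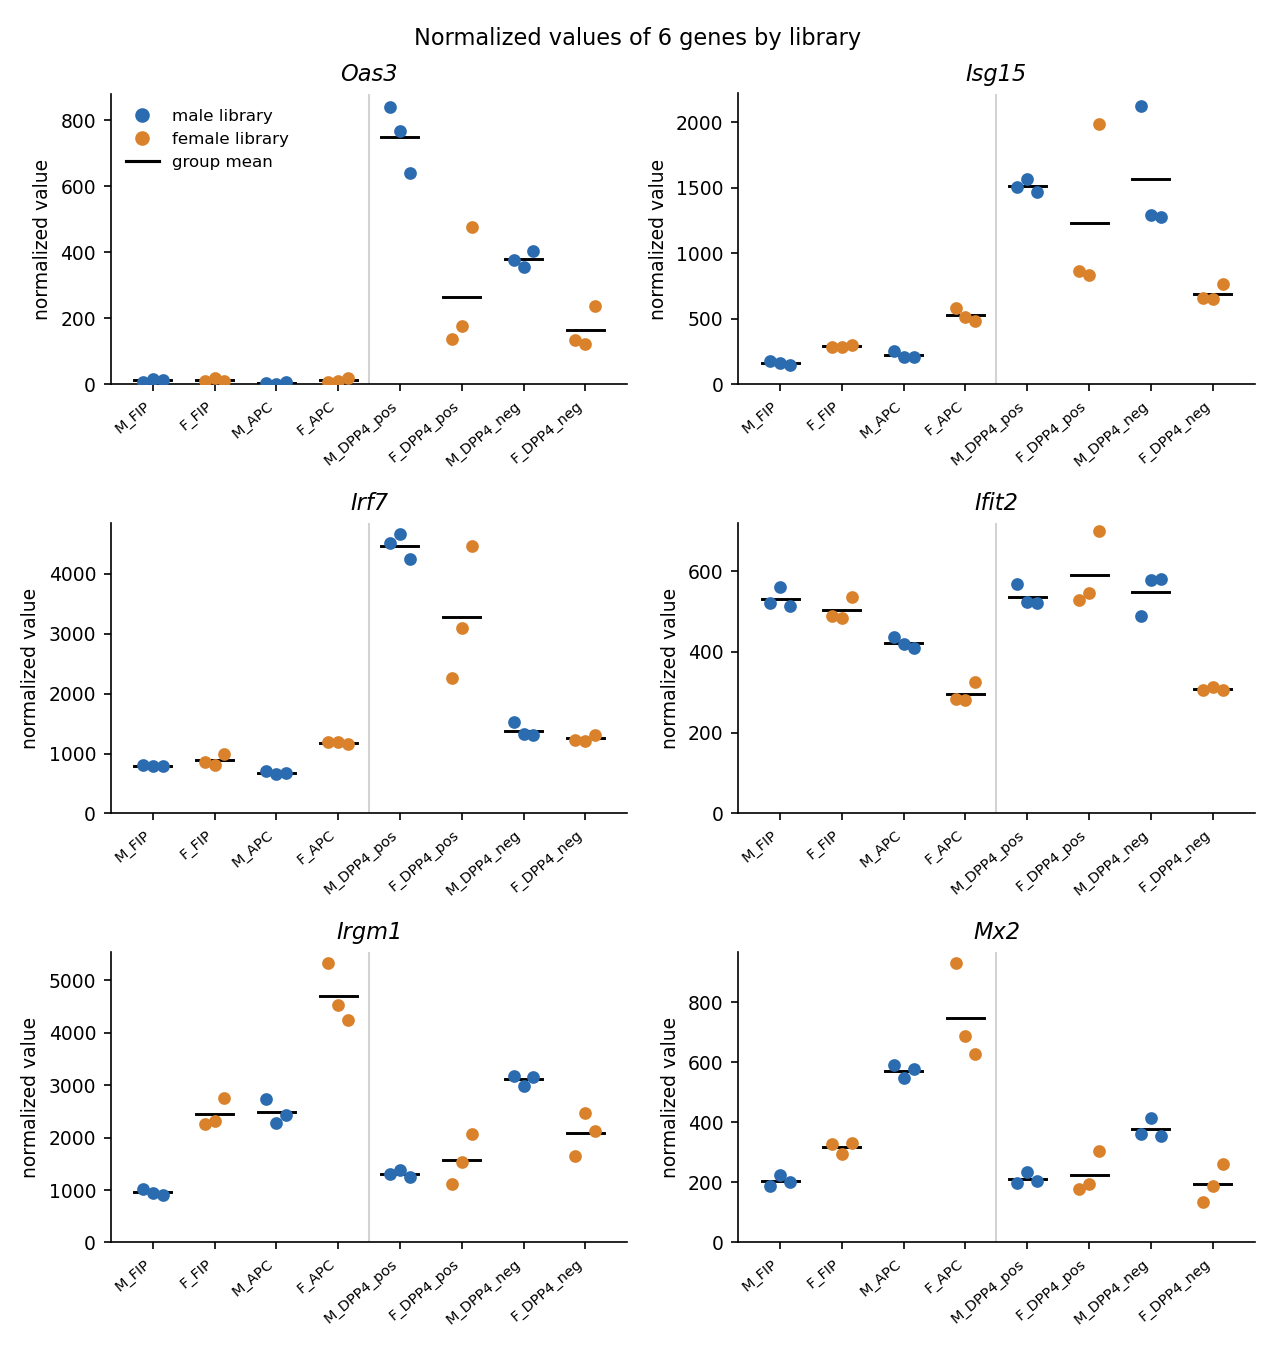
Normalised values (y axis, linear, from 0) of 6 genes in each library of the 8 groups (x axis, gonadal left of the grey line), males in blue, females in orange, with group means as bars. Oas3 is near 0 in gonadal cells, Irf7 stands out in DPP4_pos cells, and Irgm1 and Mx2 are highest in F_APC.

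The IFIT family includes proteins that bind viral RNA ends, and Ifit2 had another pattern than Ifit1 and Ifit3. Ifit3 had 158, 155 and 146 in M_FIP, 323, 321 and 385 in F_FIP, 275, 236 and 235 in M_APC, and 1015, 749 and 683 in F_APC. In inguinal cells it had 1041, 1087 and 992 in M_DPP4_pos, 1148, 1426 and 4102 in F_DPP4_pos, 1882, 1646 and 1607 in M_DPP4_neg, and 818, 1009 and 1330.2 in F_DPP4_neg. F_APC was the one gonadal group that reached the inguinal range of Ifit3, and F_DPP4_pos replicate 3 stood far above every other library. Ifit1 had 442, 433 and 397 in M_FIP, 1423, 1482 and 2115 in F_FIP, 823, 729 and 727 in M_APC, and 3921, 3120.3 and 2731 in F_APC, and among the inguinal groups 1910.4, 2019.9 and 1981 in M_DPP4_pos, 1749, 2516 and 3980.4 in F_DPP4_pos, 4063, 3035 and 3086 in M_DPP4_neg, and 1819, 3354 and 3127 in F_DPP4_neg. F_APC lay in the inguinal range for Ifit1 and F_FIP reached its lower end, while both male gonadal groups lay below every other library. Ifit2 had 522, 561 and 514 in M_FIP, 489, 485 and 536 in F_FIP, 437, 419.6 and 411 in M_APC, and 283, 282 and 326 in F_APC, and among the inguinal groups 567, 523 and 521 in M_DPP4_pos, 528, 546 and 699.8 in F_DPP4_pos, 488, 578 and 581 in M_DPP4_neg, and 306, 314 and 305 in F_DPP4_neg. Ifit2 was lowest in F_APC and F_DPP4_neg, and the other groups ran between 411 and 699.8.

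Among other antiviral effectors, Rsad2 (viperin), which makes a nucleotide that stops viral polymerases, had 254, 222 and 215 in M_FIP, 222, 224 and 266 in F_FIP, 202, 154 and 190.1 in M_APC, and 262, 212 and 259.9 in F_APC. Inguinal cells had 2021, 1843 and 1795 in M_DPP4_pos, 633, 914 and 1913 in F_DPP4_pos, 2319, 2131 and 2046 in M_DPP4_neg, and 460.0, 628 and 807 in F_DPP4_neg. Both male inguinal groups lay at 1795 or above, which 1 female library, F_DPP4_pos replicate 3, also reached. Bst2 (tetherin), which holds budding virus at the cell surface, had 582, 619 and 544 in M_FIP, 779, 716 and 761 in F_FIP, 416, 415 and 440.1 in M_APC, and 695, 777 and 773 in F_APC, and among the inguinal groups 3634, 3603 and 3242 in M_DPP4_pos, 2296, 2633 and 4244 in F_DPP4_pos, 2420.4, 1455 and 1676 in M_DPP4_neg, and 1387, 1057 and 1333 in F_DPP4_neg. Every inguinal library exceeded every gonadal one for Bst2. Mx1, a dynamin-like GTPase whose gene is known to be disrupted in most inbred mouse strains, had 166, 147 and 135 in M_DPP4_pos, 91.0, 107 and 263 in F_DPP4_pos, 59.9, 49.0 and 70.3 in M_DPP4_neg, and 47.7, 60.4 and 96.6 in F_DPP4_neg, with gonadal libraries between 4.64 and 31.8. Its relative Mx2 had 188, 223 and 202 in M_FIP, 327, 293 and 332 in F_FIP, 589, 546 and 576 in M_APC, and 929, 687 and 626 in F_APC, and among the inguinal groups 198, 233 and 205 in M_DPP4_pos, 179, 193 and 304 in F_DPP4_pos, 360.3, 414 and 355 in M_DPP4_neg, and 135, 189.6 and 263 in F_DPP4_neg. Mx2 was the exception, with both APC groups above all other groups. Ifitm3, which blocks viral fusion, ran between 5299 and 14666, Samd9l between 537 and 1931, and the nucleotide kinase gene Cmpk2 between 127 and 795.

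Of the remaining interferon-induced genes, Ifi27 had 1133, 1149.7 and 1219 in M_FIP, 1029, 1074 and 1038 in F_FIP, 1504, 1627 and 1403 in M_APC, and 1905, 1815 and 1793 in F_APC, and among the inguinal groups 1256, 1158 and 1311 in M_DPP4_pos, 987, 933 and 799 in F_DPP4_pos, 3443, 2804 and 2607 in M_DPP4_neg, and 1616, 1806 and 1759.6 in F_DPP4_neg. It was lowest in F_DPP4_pos and highest in M_DPP4_neg. Ifi44 had 17.9, 16.1 and 8.94 in M_FIP, 48.2, 42.6 and 30.9 in F_FIP, 11.8, 16.2 and 12.4 in M_APC, and 68.3, 47.6 and 44.2 in F_APC, and among the inguinal groups 184, 233 and 167 in M_DPP4_pos, 114, 126 and 266 in F_DPP4_pos, 151, 131 and 123 in M_DPP4_neg, and 109.6, 150.1 and 263 in F_DPP4_neg. The male gonadal libraries of Ifi44 lay under all others, and in inguinal cells the female groups spanned the male ones. Rtp4, a receptor-transporting protein with antiviral activity, was lowest in M_FIP (226 to 265) and highest in M_DPP4_neg (1209 to 1424). Ifi35 and Xaf1 likewise had their lowest mean in M_FIP and their highest in M_DPP4_neg.

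The large GTPases (Gbp) and immunity-related GTPases (Irgm1, Igtp) attack the vacuoles of intracellular pathogens and also answer to interferon-gamma. Irgm1 had 1022, 949 and 909 in M_FIP, 2262, 2322 and 2763 in F_FIP, 2744, 2268 and 2428 in M_APC, and 5325, 4518 and 4243 in F_APC. In inguinal cells it had 1302, 1387 and 1243 in M_DPP4_pos, 1117, 1526 and 2071 in F_DPP4_pos, 3182, 2987 and 3162 in M_DPP4_neg, and 1650.1, 2464 and 2128 in F_DPP4_neg. F_APC stood above every other library for Irgm1, and within each sex APC stood above FIP. Gbp2 had 2431, 2282 and 2333 in M_FIP, 4621, 4834 and 6221 in F_FIP, 5196, 4667 and 4802 in M_APC, and 10685, 8407 and 8069 in F_APC, and among the inguinal groups 6353, 6082 and 6221 in M_DPP4_pos, 4020.2, 5076 and 6828 in F_DPP4_pos, 16770.4, 15273 and 16892 in M_DPP4_neg, and 5518, 6571 and 7368 in F_DPP4_neg. All 3 M_DPP4_neg libraries of Gbp2 lay at 15273 or above, and the next library was at 10685 in F_APC. Igtp had 237, 211 and 192 in M_FIP, 466, 403 and 599 in F_FIP, 336, 287 and 348 in M_APC, and 639, 601 and 592 in F_APC, and among the inguinal groups 948, 1004 and 867 in M_DPP4_pos, 507, 639 and 940.2 in F_DPP4_pos, 1639, 1395 and 1596 in M_DPP4_neg, and 517, 687 and 654 in F_DPP4_neg. M_DPP4_neg was again highest, with no overlap with any other group. Gbp7 was highest in F_APC (1289 to 1559), and Gbp3 had its highest mean in M_DPP4_pos.

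By the median member, gonadal cells lay under inguinal cells, and the gap was wider in males. It was smallest between F_APC and F_DPP4_neg, where members were called in both directions. Each difference below is in log2(value + 1), given with its SE and the adjusted p of limma over all 14517 genes, a call being an adjusted p under 0.05. In M_APC against M_DPP4_neg, 37 of 40 members fell and 1 rose, while 33.0% of all tested genes were called lower and 33.1% higher. The median member difference was -1.57, against 0.02 over all tested genes, and all 3 M_APC libraries lay under all 3 M_DPP4_neg libraries for 37 members, as in 33.0% of all genes. Oas3 differed by -5.99 ± 0.40 (adjusted p = 1.36e-12), with group means of 5.58 ± 3.37 in M_APC and 379.5 ± 25.2 in M_DPP4_neg (SD, n = 3). Rsad2 differed by -3.57 ± 0.23 (adjusted p = 1.02e-12), Oas2 by -3.53 ± 0.22 (adjusted p = 3.53e-13) and Oas1a by -3.32 ± 0.15 (adjusted p = 4.41e-16). Mx2 was the member that rose, by 0.60 ± 0.18 (adjusted p = 0.0055). All 5 sensors, all 7 genes of the ISG15 group, all 5 OAS genes and all 3 IFIT genes were among those that fell. Division by each library's total, an alternative chosen after seeing the data, raised the median of all genes in this contrast by 0.41, and the members' median, relative to all genes, was then -1.58. Under that scaling 33 members were called lower and 2 higher, Mx2 and Irf9, beside 2756 and 7797 of the 14517 tested genes. Stat2, Ifit2, Gbp7 and Irgm1 also had differences above 0 and were not called.

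In F_APC against F_DPP4_neg the same contrast called 17 members lower and 6 higher, beside 32.2% and 26.8% of all tested genes. The median was -0.27, against -0.02 over all tested genes. All 5 OAS genes fell, with Oas3 at -3.62 ± 0.40 (adjusted p = 2.17e-08), Oasl1 at -1.51 ± 0.22 (adjusted p = 2.96e-06) and Oas2 at -1.50 ± 0.22 (adjusted p = 2e-06), and Ifi44 differed by -1.62 ± 0.30 (adjusted p = 5.57e-05). Of the 5 large and immunity-related GTPases 3 rose and 0 fell. The genes with the largest rises were Mx2 at 1.96 ± 0.18 (adjusted p = 1.3e-09), Irgm1 at 1.19 ± 0.15 (adjusted p = 2.1e-07), Gbp7 at 0.53 ± 0.12 (adjusted p = 0.000718) and Gbp2 at 0.48 ± 0.14 (adjusted p = 0.00434), whereas Mx1 fell, at -1.45 ± 0.31 (adjusted p = 0.000267). Quantile normalisation raised the median of all genes by 0.13 in this contrast, and 18 members were then above 0, against 11. F_DPP4_neg carried the epithelial and mesothelial transcripts named above (against epithelial sums of 59.4 to 188 and mesothelial sums of 935 to 1253 in F_APC), and their part in the result was not tested.

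Between FIP and DPP4_pos cells the members were also lower in gonadal cells. In M_FIP against M_DPP4_pos, 36 members fell and 0 rose, beside 32.4% and 32.6% of all tested genes, and the median was -1.43 against 0.02 over all tested genes. All 3 M_FIP libraries lay under all 3 M_DPP4_pos libraries for 37 members, beside 36.6% of all genes. Division by library totals raised the median of all genes by 0.37 in this contrast. Then 33 members were called lower and 3 higher (Ifi27, Irf9 and Ifit2), beside 2674 and 7626 of the 14517 tested genes. The members' median relative to all genes was -1.44. Oas3 stood at -5.88 ± 0.40 (adjusted p = 1.98e-12), Mx1 at -3.90 ± 0.31 (adjusted p = 4.49e-11), Ifi44 at -3.72 ± 0.30 (adjusted p = 6.66e-11) and Oasl1 at -3.51 ± 0.22 (adjusted p = 7.8e-13). In F_FIP against F_DPP4_pos, 28 members fell and 3 rose, beside 22.6% and 22.1% of all tested genes, with a median of -0.84 against 0.01. Oas3 differed by -3.98 ± 0.40 (adjusted p = 7.87e-09), Ifit3 by -2.46 ± 0.26 (adjusted p = 2.83e-08), Mx1 by -2.42 ± 0.31 (adjusted p = 4.79e-07) and Rsad2 by -2.12 ± 0.23 (adjusted p = 4.03e-08). Irgm1 at 0.68 ± 0.15 (adjusted p = 0.000568), Mx2 at 0.53 ± 0.18 (adjusted p = 0.0195) and Gbp7 at 0.33 ± 0.12 (adjusted p = 0.0312) rose. Without F_DPP4_pos replicate 3, 23 members fell and 3 rose, the median was -0.58, and the differences were -3.44 ± 0.38 (adjusted p = 8.13e-08) for Oas3, -1.90 ± 0.16 (adjusted p = 5.44e-10) for Ifit3, -1.96 ± 0.28 (adjusted p = 4.89e-06) for Mx1 and -1.68 ± 0.17 (adjusted p = 2e-08) for Rsad2. In all gonadal groups the 18 immediate early genes, which dissociation of tissue also induces, summed to more (327793 to 548677) than in all inguinal groups (151731 to 234962), and their part in the result was not tested.

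The test of the difference between the sexes addressed that gap directly. Between APC and DPP4_neg cells, the gonadal minus inguinal difference was lower in males than in females for all 40 members, and 38 were called, whereas 20.3% of all tested genes were called lower and 22.6% higher. The median of these differences was -1.24, against 0.05 over all tested genes. The largest were Oas1a at -2.88 ± 0.21 (adjusted p = 4.12e-11), Ifit3 at -2.42 ± 0.37 (adjusted p = 1.04e-05), Ifit1 at -2.42 ± 0.31 (adjusted p = 6.71e-07) and Oas3 at -2.37 ± 0.56 (adjusted p = 0.0013). Division by library totals raised the median of all genes by 0.39 in this contrast. Then 33 members were called lower and 0 higher, beside 1423 and 6912 of the 14517 tested genes. Irf9, Ifit2 and Dhx58 were above 0 without a call. Between FIP and DPP4_pos cells, 24 members were called lower and 0 higher, beside 19.2% and 15.7% of all tested genes, with a median of -0.62. Those named were Oas3 at -1.90 ± 0.56 (adjusted p = 0.0102), Ifi44 at -1.77 ± 0.43 (adjusted p = 0.00212), Igtp at -1.66 ± 0.22 (adjusted p = 2.94e-06) and Ifit1 at -1.56 ± 0.31 (adjusted p = 0.000324). Without F_DPP4_pos replicate 3 the count was 33 lower and 0 higher. Divided by library totals it was 17 lower and 3 higher, beside 1649 and 3809 of the 14517 tested genes.

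Within gonadal fat, males had less of the programme than females. In M_APC against F_APC, 31 members fell and 1 rose, beside 22.1% and 22.4% of all tested genes, and the median was -0.71 against 0 over all tested genes. Ifit1 differed by -2.08 ± 0.22 (adjusted p = 1.97e-08), Oas1a by -2.07 ± 0.15 (adjusted p = 2.12e-11), Ifit3 by -1.69 ± 0.26 (adjusted p = 9.6e-06) and Oas2 by -1.65 ± 0.22 (adjusted p = 8.57e-07). Their group means were 759.9 ± 54.8 in M_APC and 3257 ± 607 in F_APC for Ifit1, and 58.3 ± 11.7 in M_APC and 246 ± 29.1 in F_APC for Oas1a (SD, n = 3). Ifit2 rose by 0.51 ± 0.093 (adjusted p = 7.05e-05). All 7 genes of the ISG15 group and all 5 GTPases fell. The libraries did not overlap, with M_APC under F_APC, for 33 members, beside 27.2% of all genes. In M_FIP against F_FIP, 28 members fell and 0 rose, beside 19.0% and 18.2% of all tested genes, with a median of -0.64 against -0.02, and all 3 M_FIP libraries lay under all 3 F_FIP libraries for 31 members, beside 30.2% of all genes. Ifit1 stood at -1.96 ± 0.22 (adjusted p = 8.29e-08), Irgm1 at -1.35 ± 0.15 (adjusted p = 8.24e-08), Igtp at -1.18 ± 0.16 (adjusted p = 1.51e-06) and Rtp4 at -1.16 ± 0.15 (adjusted p = 1.31e-06). The 13 macrophage markers summed to 678 to 939 in M_APC and 404 to 798 in F_APC, and to 439 to 619 in M_FIP and 184 to 247 in F_FIP. Of the 13, 2 were called higher in M_APC and 11 in M_FIP and 0 lower in either. The 10 mesothelial markers summed to 312 to 440.0 in M_APC and 935 to 1253 in F_APC, with 8 called lower and 0 higher in M_APC, and to 345 to 493 in M_FIP and 275 to 315 in F_FIP, with 2 called higher in M_FIP. The 9 epithelial markers summed to 36.2 to 50.4 in M_APC and 59.4 to 188 in F_APC, with 3 called lower and 1 higher in M_APC. The part of these cells in the results was not tested.

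In inguinal DPP4_neg cells the sex difference ran the other way. In M_DPP4_neg against F_DPP4_neg, 30 members rose and 1 fell, beside 27.1% and 30.3% of all tested genes, and the median was 0.60 against -0.03. All 3 M_DPP4_neg libraries lay above all 3 F_DPP4_neg libraries for 29 members, beside 26.8% of all genes. Rsad2 rose by 1.81 ± 0.23 (adjusted p = 3.57e-07), Gbp2 by 1.34 ± 0.14 (adjusted p = 9.82e-09), Igtp by 1.32 ± 0.16 (adjusted p = 1.09e-07) and Oas3 by 1.26 ± 0.40 (adjusted p = 0.0086). Irf9 differed by -0.20 ± 0.077 (adjusted p = 0.0307). Divided by library totals, 18 members rose and 2 fell, beside 2182 and 7042 of the 14517 tested genes. The median of all genes dropped by 0.28, and relative to all genes the members' median was 0.62 under that scaling. The comparison shares no library with that of APC cells: 21 members were called lower in M_APC against F_APC and higher in M_DPP4_neg against F_DPP4_neg, among them Isg15, Oas3, Oas1a, Ifit3, Gbp2, Irgm1 and Bst2. Ifit2 was called higher in both and Irf9 lower in both. The share of all tested genes called in both comparisons was not counted. The epithelial markers summed to 12.3 to 29.6 in M_DPP4_neg and 7829.6 to 18751 in F_DPP4_neg. The mesothelial markers summed to 39.5 to 79.2 in M_DPP4_neg and 7258 to 17627 in F_DPP4_neg, and their part in the result was not tested.

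**Figure D4:**
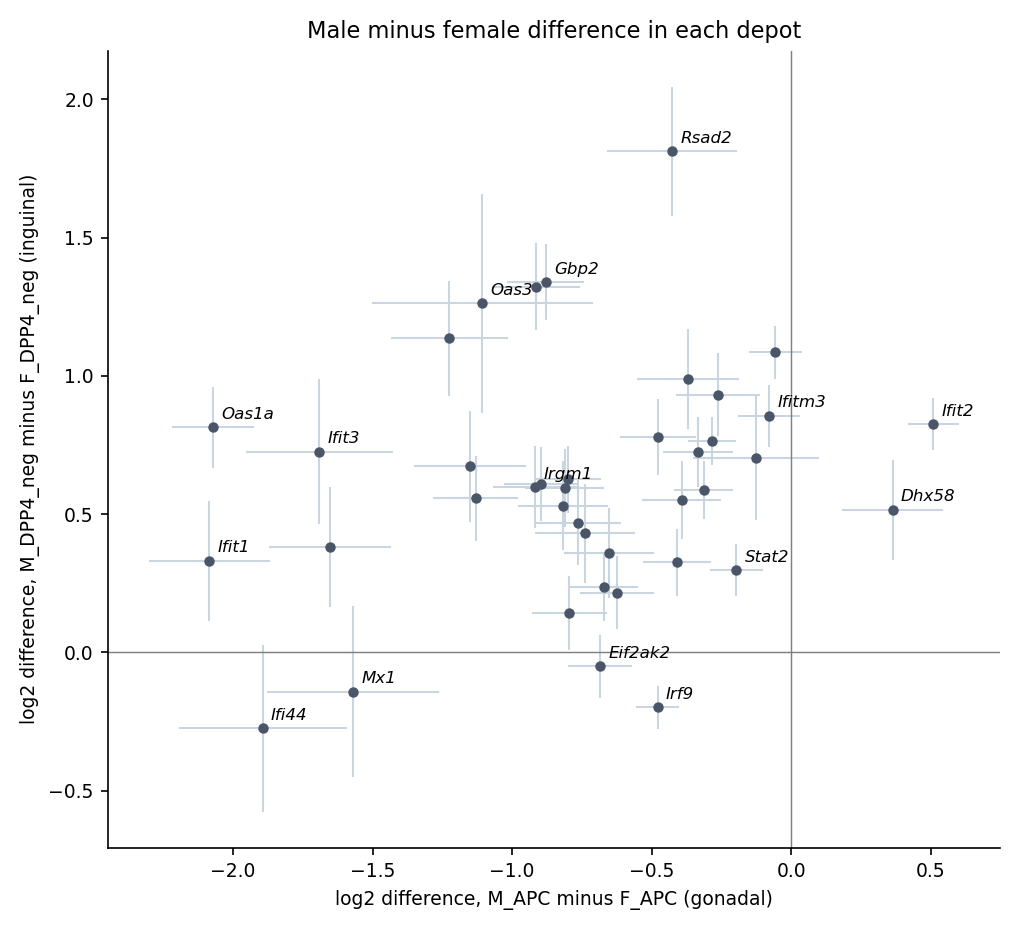
Male minus female log2 difference of the 40 genes in gonadal APC cells (x axis) and inguinal DPP4_neg cells (y axis), with SE bars; genes far from the rest are named. Most points lie in the upper left, lower in M_APC and higher in M_DPP4_neg, while Ifit2 is higher in both and Irf9 lower in both.

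DPP4_pos cells showed no single direction between the sexes. In M_DPP4_pos against F_DPP4_pos, 10 members rose and 5 fell, beside 27.1% and 25.5% of all tested genes, with a median of -0.02 against 0. Of the 5 OAS genes 4 rose, with Oas3 at 1.71 ± 0.40 (adjusted p = 0.000759), Oasl1 at 1.45 ± 0.22 (adjusted p = 7.15e-06) and Oas2 at 0.94 ± 0.22 (adjusted p = 0.000757), and Rsad2 rose by 0.86 ± 0.23 (adjusted p = 0.00298). Ifit3 differed by -0.86 ± 0.26 (adjusted p = 0.00804), Eif2ak2 by -0.81 ± 0.11 (adjusted p = 1.9e-06), Irf9 by -0.55 ± 0.077 (adjusted p = 1.52e-06) and Samd9l by -0.42 ± 0.12 (adjusted p = 0.00481). The counts changed with the scaling and without 1 library. Without F_DPP4_pos replicate 3, 16 members rose and 3 fell, the median was 0.25, and Ifit3 and Samd9l were no longer called. The differences were then 2.25 ± 0.38 (adjusted p = 3.21e-05) for Oas3, 1.77 ± 0.21 (adjusted p = 2.23e-07) for Oasl1, 1.23 ± 0.21 (adjusted p = 4.27e-05) for Oas2 and 1.31 ± 0.17 (adjusted p = 9.29e-07) for Rsad2. Divided by library totals, 7 rose and 13 fell, beside 2896 and 4969 of the 14517 tested genes. Relative to all genes the members' median was -0.02 under that scaling, as in the main fit. Quantile normalisation gave 7 higher and 10 lower, beside 3483 and 3694 of all tested genes, with a relative median of -0.09.

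Within gonadal fat, more members were called lower than higher in FIP against APC cells. Rises were no more common among the members than among all tested genes. In F_FIP against F_APC, 15 members fell and 4 rose, beside 18.1% and 21.3% of all tested genes, with a median of -0.20 against -0.00. Quantile normalisation gave 17 lower and 2 higher, beside 2923 and 2840 of the 14517 tested genes. Ifit3 differed by -1.23 ± 0.26 (adjusted p = 0.000516), Mx2 by -1.21 ± 0.18 (adjusted p = 6.53e-06), Ifit1 by -0.97 ± 0.22 (adjusted p = 0.000806) and Irgm1 by -0.94 ± 0.15 (adjusted p = 1.47e-05). Ifit2 rose by 0.76 ± 0.093 (adjusted p = 2.74e-07), Cmpk2 by 0.53 ± 0.18 (adjusted p = 0.0206), Zbp1 by 0.38 ± 0.14 (adjusted p = 0.0324) and Trim30a by 0.30 ± 0.11 (adjusted p = 0.0279). In M_FIP against M_APC, 17 members fell and 7 rose, beside 18.0% and 18.9% of all tested genes, with a median of -0.20 against -0.03. Mx2 stood at -1.48 ± 0.18 (adjusted p = 3.3e-07), Irgm1 at -1.37 ± 0.15 (adjusted p = 4.5e-08), Gbp2 at -1.06 ± 0.14 (adjusted p = 8.65e-07) and Rtp4 at -0.89 ± 0.15 (adjusted p = 4.42e-05). Oas1a rose by 0.87 ± 0.15 (adjusted p = 3.01e-05), Trim30a by 0.67 ± 0.11 (adjusted p = 1.23e-05), Cmpk2 by 0.56 ± 0.18 (adjusted p = 0.0142) and Usp18 by 0.51 ± 0.20 (adjusted p = 0.0493). The call of Usp18 was lost under library totals, in a fit of these 2 groups alone, and with edgeR and DESeq2. The female and male comparisons share no library, and 12 members fell in both (Mx2, Irgm1, Gbp2, Gbp7, Ifit1, Ifit3, Irf9, Rtp4, Trim25, Ifi27, Xaf1 and Ifitm3) and 3 rose in both (Cmpk2, Ifit2 and Trim30a). How many of all tested genes were called in both sexes was not counted. The macrophage markers summed to less in F_FIP than in F_APC, with 12 of the 13 called lower, and 2 of the 13 were called lower in M_FIP. The 8 adipocyte markers summed to 539.9 to 613 in F_FIP and 2359 to 2695 in F_APC, with 8 called lower, and to 1094 to 1174 in M_FIP and 2215 to 2716 in M_APC, with 7 called lower. The 9 mural markers summed to 642 to 732 in F_FIP and 1944 to 2391 in F_APC, with 8 called lower, and to 1064 to 1291 in M_FIP and 2091 to 2802 in M_APC, with 5 called lower. The mesothelial markers were called lower in F_FIP for 10 of 10 and in M_FIP for 0, and the endothelial markers for 8 of 10 and for 0. The 18 immediate early genes summed to 327793 to 345109 in F_FIP and 525095 to 548677 in F_APC, and to 351777 to 386770.0 in M_FIP and 479212 to 505911 in M_APC. The part of these in the result was not tested. The difference between the sexes was called for 6 members, beside 10.8% of all tested genes. It was higher in males for 4 and lower for 2, beside 5.46% and 5.33%: higher for Oas2 at 1.26 ± 0.31 (adjusted p = 0.00805), Oas1a at 1.05 ± 0.21 (adjusted p = 0.00118), Irf7 at 0.64 ± 0.19 (adjusted p = 0.0285) and Ifi27 at 0.44 ± 0.12 (adjusted p = 0.0205), and lower for Stat2 at -0.68 ± 0.13 (adjusted p = 0.00115) and Ifit2 at -0.43 ± 0.13 (adjusted p = 0.0337).

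In inguinal fat, DPP4_pos cells were richer in Irf7, Zbp1, Usp18 and Bst2 than DPP4_neg cells and poorer in Trim25, Irgm1 and Ifi27, with the exceptions for Usp18 and Irgm1 given below. In F_DPP4_pos against F_DPP4_neg, 19 members rose and 5 fell, beside 22.6% and 27.1% of all tested genes, and the median was 0.33 against -0.04. Irf7 rose by 1.33 ± 0.13 (adjusted p = 8.44e-09), Zbp1 by 1.31 ± 0.14 (adjusted p = 2.39e-08), Usp18 by 1.26 ± 0.20 (adjusted p = 1.04e-05) and Bst2 by 1.24 ± 0.16 (adjusted p = 4.98e-07). Ifi27 differed by -0.93 ± 0.087 (adjusted p = 2.31e-09), Trim25 by -0.81 ± 0.12 (adjusted p = 3.96e-06), Oas2 by -0.70 ± 0.22 (adjusted p = 0.00951) and Irgm1 by -0.43 ± 0.15 (adjusted p = 0.0187). Without F_DPP4_pos replicate 3, 11 members rose and 7 fell and the median was 0.07. The difference was then 1.08 ± 0.10 (adjusted p = 4.83e-09) for Irf7, 1.04 ± 0.10 (adjusted p = 1.18e-08) for Zbp1, 1.01 ± 0.20 (adjusted p = 0.000195) for Usp18 and 0.97 ± 0.14 (adjusted p = 2.81e-06) for Bst2. Isg15 at 0.30 ± 0.15 (adjusted p = 0.106) and Ifit3 at 0.31 ± 0.16 (adjusted p = 0.112) were not called without it, and neither were Stat2, Rsad2, Cmpk2, Irf9, Mx1 and Samd9l. A fit of these 2 groups alone called 12 higher and 2 lower, and Irgm1, Gbp7 and Oas2 were among those no longer called.

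**Figure D5:**
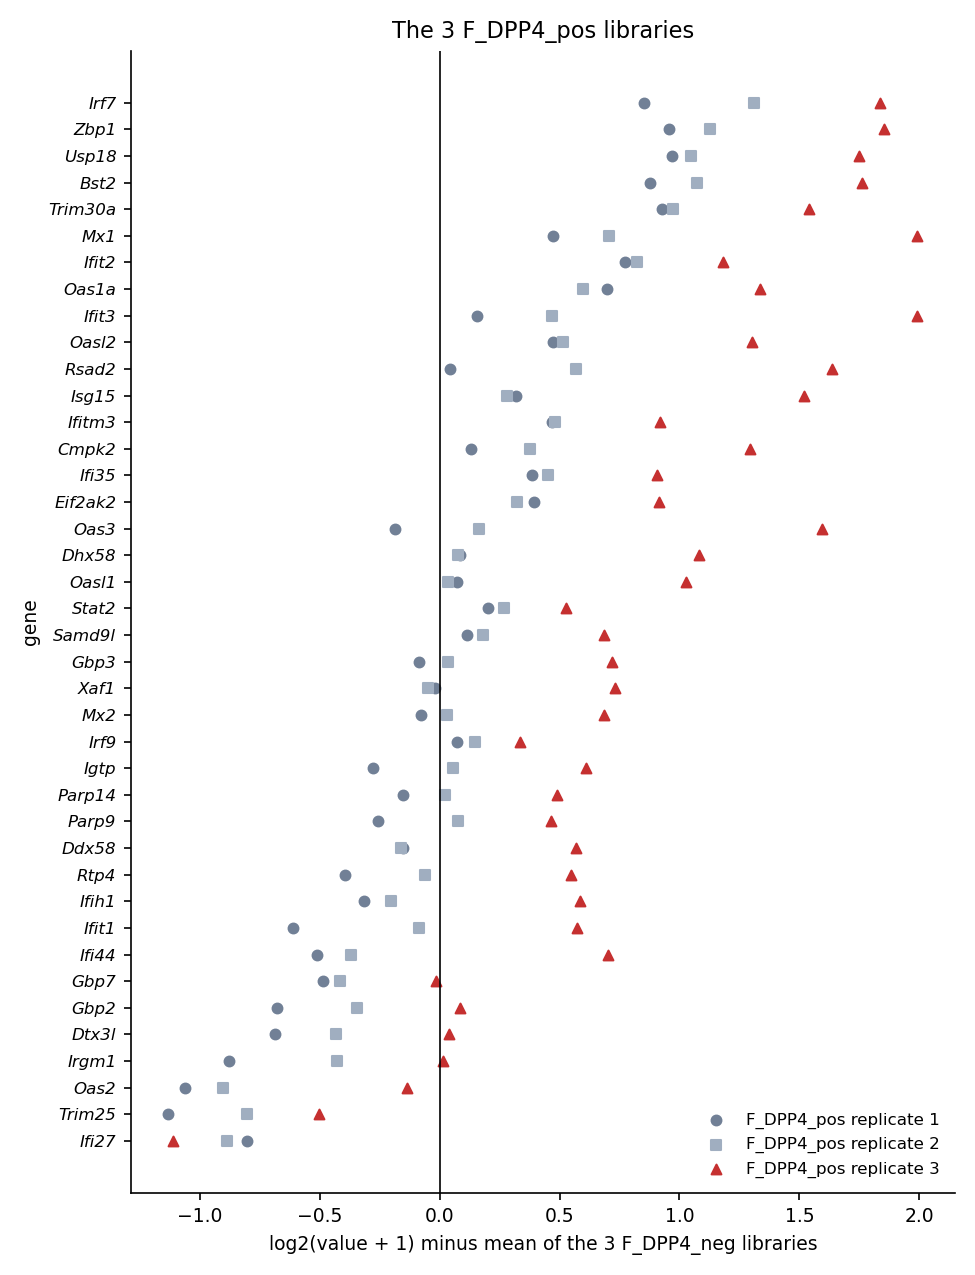
Log2(value + 1) of the 40 genes (y axis, sorted by their mean difference) in each F_DPP4_pos library minus the mean of the 3 F_DPP4_neg libraries (x axis). Replicate 3, the red triangles, lies to the right of the other replicates for 39 of the 40 genes.

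In M_DPP4_pos against M_DPP4_neg, 9 members rose and 18 fell, beside 25.2% and 25.3% of all tested genes, with a median of -0.21 against 0.00. Quantile normalisation gave 6 higher and 21 lower, beside 3501 and 3394 of the 14517 tested genes. Irf7 rose by 1.69 ± 0.13 (adjusted p = 7.21e-11), with 4473 ± 209 in M_DPP4_pos and 1386 ± 120.5 in M_DPP4_neg (SD, n = 3). Mx1 rose by 1.32 ± 0.31 (adjusted p = 0.000899), Oasl1 by 1.12 ± 0.22 (adjusted p = 0.000168) and Oas3 by 0.97 ± 0.40 (adjusted p = 0.043). Gbp2 differed by -1.39 ± 0.14 (adjusted p = 4.54e-09), Trim25 by -1.37 ± 0.12 (adjusted p = 5.81e-10), Irgm1 by -1.25 ± 0.15 (adjusted p = 1.1e-07) and Ifi27 by -1.24 ± 0.087 (adjusted p = 7.31e-12). The comparison shares no library with that in females: 7 members rose in both (Irf7, Zbp1, Usp18, Bst2, Trim30a, Oas1a and Mx1), 4 fell in both (Irgm1, Trim25, Ifi27 and Gbp7), and 4 rose in females and fell in males (Stat2, Ifi35, Ifit3 and Samd9l). Of these Mx1, Stat2, Ifit3 and Samd9l were not called in females without F_DPP4_pos replicate 3. How many of all tested genes were called in both sexes was not counted here either. The male call of Usp18 was lost under library totals, quantile normalisation, a fit of these 2 groups alone, edgeR and DESeq2. The macrophage markers were called lower in DPP4_pos cells for 13 of 13 in females and 6 of 13 in males. The 10 endothelial markers summed to 4282 to 4584 in M_DPP4_pos and 1065 to 1274 in M_DPP4_neg, and to 6454 to 7421 in F_DPP4_pos and 1857 to 2795 in F_DPP4_neg, although singly 2 were called higher and 1 lower in males and 2 higher and 7 lower in females. The part of either list in the result was not tested. The DPP4_pos minus DPP4_neg difference was lower in males for 23 members and higher for 0, beside 12.6% and 16.4% of all tested genes, with a median of -0.62. Those named were Ifit3 at -1.59 ± 0.37 (adjusted p = 0.00211), Gbp2 at -1.08 ± 0.20 (adjusted p = 0.000151), Samd9l at -1.05 ± 0.17 (adjusted p = 4.47e-05) and Mx2 at -1.04 ± 0.26 (adjusted p = 0.00323). Without F_DPP4_pos replicate 3 it was lower for 17 and higher for 3, with Ifit3 at -1.03 ± 0.21 (adjusted p = 0.000707). Divided by library totals it was lower for 16 and higher for 2, beside 1250 and 3719 of the 14517 tested genes.

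Of 10 interferon genes looked up as possible ligands, Ifnb1, which encodes interferon-beta, was the one that passed the filter. Ifnb1 had 14.7, 38.1 and 24.2 in M_DPP4_pos, 28.0, 22.4 and 61.1 in F_DPP4_pos, 3.04, 2.04 and 2.47 in M_DPP4_neg, and 12.7, 6.19 and 2.48 in F_DPP4_neg, and at most 2.99 in any gonadal library. It was named after its values were seen. Its group means lie under 100, its counts are low, 236 reads over all 24 libraries, and the highest value is that of F_DPP4_pos replicate 3. Ifnb1 passed the filter through the DPP4_pos groups. Every library there lay at 14.7 or above, and elsewhere only the F_DPP4_neg library at 12.7 reached 10. Contrasts of DPP4_pos with other cells reuse the values that picked the gene, so they are given as a description. The log2 difference of DPP4_pos minus DPP4_neg was 2.83 ± 0.59 in males and 2.31 ± 0.59 in females. Without F_DPP4_pos replicate 3 it was 1.90 ± 0.66 in females. FIP minus DPP4_pos was -4.32 ± 0.59 in males and -4.17 ± 0.59 in females, or -3.75 ± 0.66 in females without that library. Between the sexes Ifnb1 was not called in any subpopulation.

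Of 9 receptor and kinase genes, 3 rose and 4 fell in M_APC against M_DPP4_neg, beside 33.1% and 33.0% of all tested genes, and 3 rose and 4 fell in M_DPP4_neg against F_DPP4_neg, beside 27.1% and 30.3%. These shares are near those of all genes. Ifngr2, a subunit of the interferon-gamma receptor, was lower in M_APC than in M_DPP4_neg, with a difference of -1.56 ± 0.07 (adjusted p = 5.86e-16), and lower in F_APC than in F_DPP4_neg, with -1.79 ± 0.07 (adjusted p = 1.13e-16). Jak2, a kinase of the interferon-gamma receptor, had 1649.5, 1543 and 1381 in M_FIP, 3000.3, 2952 and 2782 in F_FIP, 2008, 1709 and 1849.7 in M_APC, and 2580.0, 2229.7 and 2238 in F_APC, and among the inguinal groups 5049, 5015 and 5000.0 in M_DPP4_pos, 8737, 9373 and 9112 in F_DPP4_pos, 4250.2, 4701 and 4568 in M_DPP4_neg, and 6089.6, 6071 and 5304 in F_DPP4_neg. All gonadal libraries of Jak2 lay under all inguinal ones. Jak1, the kinase that both interferon receptors use, was lower in M_APC than in M_DPP4_neg, with -0.91 ± 0.081 (adjusted p = 3.95e-10).

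Other transcription factors of the pathway were measured too. Irf1, a factor induced by interferon-gamma and by inflammatory signals, had 8704, 8609 and 8646 in M_FIP, 10155, 10375 and 13857 in F_FIP, 12084, 11608 and 11414 in M_APC, and 15868, 13332 and 13447 in F_APC, and among the inguinal groups 3039.6, 2948 and 2953 in M_DPP4_pos, 2855, 3256 and 3746 in F_DPP4_pos, 3427, 2844 and 2857 in M_DPP4_neg, and 2658, 2634 and 4167 in F_DPP4_neg. Every gonadal library of Irf1 exceeded every inguinal one, the reverse of most members, by 1.95 ± 0.13 (adjusted p = 3.17e-12) in M_APC against M_DPP4_neg and 2.20 ± 0.13 (adjusted p = 5.02e-13) in F_APC against F_DPP4_neg.

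Of 7 negative regulators, 1 rose and 4 fell in M_APC against M_DPP4_neg, beside 33.1% and 33.0% of all tested genes. In F_APC against F_DPP4_neg 3 rose and 4 fell, beside 26.8% and 32.2%. Socs3, which blocks JAK kinases, was higher in M_APC than in M_DPP4_neg by 1.86 ± 0.091 (adjusted p = 4.11e-15) and in F_APC than in F_DPP4_neg by 2.04 ± 0.091 (adjusted p = 1.49e-15). Samhd1, a nucleotide hydrolase that limits sensing of DNA, was lower in M_APC than in M_DPP4_neg, with -1.24 ± 0.077 (adjusted p = 3.59e-13). It was higher in DPP4_pos than in DPP4_neg cells, by 0.90 ± 0.077 (adjusted p = 2.93e-10) in males and 1.36 ± 0.077 (adjusted p = 3.78e-13) in females, or 1.31 ± 0.084 (adjusted p = 1.25e-11) in females without F_DPP4_pos replicate 3. Socs1 was lower in M_APC than in F_APC, with -0.75 ± 0.093 (adjusted p = 3.83e-07), and higher in M_DPP4_neg than in F_DPP4_neg by 1.27 ± 0.093 (adjusted p = 2.42e-11). Of the 10 sensors and adaptors tested, 3 rose and 6 fell in M_APC against M_DPP4_neg, beside 33.1% and 33.0% of all tested genes. Ticam1, the adaptor of TLR3, was higher in M_DPP4_neg than in F_DPP4_neg by 1.38 ± 0.12 (adjusted p = 4.9e-10).

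Of 25 interferon-induced genes outside the 40, 19 fell and 1 rose in M_APC against M_DPP4_neg, beside 33.0% and 33.1% of all tested genes. The median was -0.76. In M_APC against F_APC 14 fell and 0 rose, beside 22.1% and 22.4%, with a median of -0.41. In M_DPP4_neg against F_DPP4_neg 16 rose and 2 fell, beside 27.1% and 30.3%, with a median of 0.57. In F_APC against F_DPP4_neg, 10 rose and 6 fell, beside 26.8% and 32.2%. The median was 0.14, where the members' median was -0.27. In M_DPP4_pos against F_DPP4_pos 4 rose and 8 fell, beside 27.1% and 25.5%, with a median of 0.02. That count includes F_DPP4_pos replicate 3, whose sum over this list was 56822, against 39874 and 44067 in the other libraries of its group. Plac8 differed by -2.63 ± 0.19 (adjusted p = 5.05e-12) in M_APC against M_DPP4_neg, and Slfn2, a regulator of T cell quiescence, by 2.38 ± 0.16 (adjusted p = 3.19e-12) in M_DPP4_neg against F_DPP4_neg. A further 14 genes known for their response to interferon-gamma were GTPases and chemokines, with Ciita and Cd274. Of these 12 fell and 0 rose in M_APC against F_APC, beside 22.1% and 22.4% of all tested genes, with a median of -0.90. Over these 14 genes the sums were higher in F_APC, at 26952 to 33979, than in F_DPP4_neg, at 11565 to 17736. In males they were lower in M_APC, at 7038 to 9107, than in M_DPP4_neg, at 25934 to 27207. Cxcl9, a ligand of CXCR3 on T cells, had 252, 191 and 221 in M_APC, and 2704, 1549 and 1683 in F_APC. In inguinal cells Cxcl9 had 233, 238 and 219 in M_DPP4_pos, and 2974, 2653 and 3042 in M_DPP4_neg. It differed by -3.12 ± 0.23 (adjusted p = 5.51e-11) in M_APC against F_APC and by -3.64 ± 0.23 (adjusted p = 9.22e-13) in M_DPP4_pos against M_DPP4_neg. Cxcl10 had 922, 947 and 952 in M_FIP, and 5041, 5099 and 7366 in F_FIP, and differed by -2.61 ± 0.20 (adjusted p = 1.17e-10) in M_FIP against F_FIP.

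Across the 24 libraries, which share the 8 groups, the genes outside the 40 whose log2 levels most resembled the members' mean were Herc6 (r = 0.97), Phf11d (0.97), Cd274 (0.96), Gbp6 (0.95), Slfn8 (0.94), Adar (0.94), 1500015O10Rik (0.94), Rnf213 (0.94), Psmb8 (0.94) and Ifi205 (0.94). Herc6 ran between 191 and 874 normalised counts and Cd274, which encodes the checkpoint ligand PD-L1, between 165 and 933.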

How the data were processed

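RNA was sequenced from 24 libraries of 0.5 ug total RNA each, 3 for each of 8 groups of sex, depot and sorted subpopulation. The submitters' processing notes name Trim Galore 0.4.1, HISAT2 2.0.1, featureCounts 1.4.6, DESeq2 1.6.3 and the mouse build GRCm38/mm10, with no settings; the sources used here do not give strand or multi-mapping rules. The authors deposited 1 table of normalised counts, a signal in which each library's values are whole multiples of 1 step. Dividing by that step recovered whole reads for 100.0% of values within 0.01 read, 9152470 to 18221692 a library, of which at most 0.0765% lay in rows without a symbol; intervals from depth cover counting error alone. Replicates differed by more than sampling noise (chi-square per degree of freedom 1.65 to 27.7 over 24 pairs, r = 0.982 to 0.992), so each counts as 1 sample.

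The 14517 genes that reached 10 in 3 or more libraries were kept. Values were taken as log2(value + 1), which understates changes of low genes, and tested with limma 3.58.1 in R 4.3.3 (mean-variance trend, 1 mean a group over all 24 libraries, Benjamini-Hochberg over all genes, adjusted p under 0.05). A check on simulated counts recovered nearly all of the larger changes put into genes with a mean over 100. It gave every gene the same spread and held no library like F_DPP4_pos replicate 3, so it does not cover that case. Alternatives were pseudocounts of 0.5 and 5, no filter and a filter at 50, TMM factors, quantile normalisation, edgeR 4.0.16 and DESeq2 1.42.0 on the recovered reads, a replicate block, only the groups compared, each library left out, and scaling to library totals. Members and gene lists were chosen with earlier results of these data known. In each comparison full statistics were given for up to 4 called members with the largest rise and 4 with the largest fall among those whose higher group averaged 100 or more; for other lists up to 3 called genes. Promoter windows and gene models came from RefSeq.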

Additional observations from a re-analysis of the deposited data

Results flagged for a closer look

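All results here are differences between the sexes in the same contrast, each tested as male minus female by limma with adjustment over all genes.

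The gonadal minus inguinal difference between APC and DPP4_neg cells differed between males and females for 38 members, all lower in males. Of all tested genes 20.3% were called lower and 22.6% higher. The values were -2.88 for Oas1a, -2.42 for Ifit3, -2.42 for Ifit1 and -2.37 for Oas3 on the log2 scale. Between FIP and DPP4_pos cells it differed for 24 members, all lower in males, beside 19.2% of all tested genes called lower and 15.7% higher. It was -1.90 for Oas3, -1.77 for Ifi44, -1.66 for Igtp and -1.56 for Ifit1. It differed for 33 when F_DPP4_pos replicate 3 was left out.

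The DPP4_pos minus DPP4_neg difference differed between the sexes for 23 members, all lower in males. Of all tested genes 12.6% were called lower and 16.4% higher. The difference was -1.59 for Ifit3, -1.08 for Gbp2, -1.05 for Samd9l and -1.04 for Mx2. With that library left out it differed for 20, 17 lower and 3 higher in males, with -1.03 for Ifit3. The FIP minus APC difference differed for 6 members, beside 10.8% of all tested genes. It was higher in males by 1.26 for Oas2, 1.05 for Oas1a, 0.64 for Irf7 and 0.44 for Ifi27, while it was -0.68 for Stat2 and -0.43 for Ifit2.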

How the results depend on the processing

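Scaling to library totals was chosen after seeing the data. Beside the report's counts, M_DPP4_neg against F_DPP4_neg gave 20 called members under it, against 31, and F_DPP4_pos against F_DPP4_neg gave 14, against 24, when only the groups compared entered the fit. Of all 14517 tested genes, 9224 were called in M_DPP4_neg against F_DPP4_neg under library totals, against 8332. Under library totals Stat2 (0.13), Ifit2 (0.048) and Gbp7 (0.0423) turned above 0 in M_APC against M_DPP4_neg, Gbp7 (0.0425) in M_FIP against M_DPP4_pos, and Irf9 (0.11) in the sex difference of APC minus DPP4_neg; quantile normalisation gave Stat2 0.0604. The cause was not tested. The other called single-gene differences, of 419 in all, kept their direction under the alternatives run. Of the 221 differences that were not called, 38 changed sign under library totals, of which Ifi27, Irf9 and Ifit2 were then called in M_FIP against M_DPP4_pos, 32 under quantile normalisation, 6 under TMM factors, 7 with edgeR, 2 with DESeq2 1 with a pseudocount of 0.5 and 27 without F_DPP4_pos replicate 3, of which Zbp1 was then called higher in M_DPP4_pos than in F_DPP4_pos.

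Leaving out 1 library at a time gave 16 to 21 called members for F_FIP against F_APC, 18 to 29 for M_FIP against M_APC, 18 to 25 for F_DPP4_pos against F_DPP4_neg and 24 to 29 for M_DPP4_pos against M_DPP4_neg. It gave 29 to 35 for M_APC against F_APC, 27 to 29 for M_FIP against F_FIP, 25 to 33 for M_DPP4_neg against F_DPP4_neg and 12 to 19 for M_DPP4_pos against F_DPP4_pos. It gave 20 to 27 for F_APC against F_DPP4_neg, 37 to 39 for M_APC against M_DPP4_neg, 26 to 34 for F_FIP against F_DPP4_pos and 35 to 36 for M_FIP against M_DPP4_pos. For the sex differences it gave 4 to 7 (FIP minus APC), 17 to 26 (DPP4_pos minus DPP4_neg), 36 to 39 (APC minus DPP4_neg) and 20 to 33 (FIP minus DPP4_pos), and 40 for any difference.

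Of 84 same-numbered pairs across groups 4 correlated over 0.1, and 6 of 24 libraries correlated best with their own number. The 84 pairs include male with female libraries, which cannot share an animal. Pairs within a sex were not examined alone, so it was not tested whether replicate numbers mark libraries from the same animal. With the replicate block the counts were 19 for F_FIP against F_APC, 24 for M_FIP against M_APC, 32 for M_APC against F_APC and 15 for M_DPP4_pos against F_DPP4_pos. Depth limits genes such as Oas3 and Mx1 in gonadal cells.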
